A study of Mus musculus with 8 samples.

Results

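The genes described here are 10 negative-feedback regulators of ERK signalling, 6 dual-specificity phosphatases of the MAP kinase phosphatase type (Dusp1, Dusp2, Dusp4, Dusp5, Dusp6 and Dusp10), 2 Sprouty genes (Spry1 and Spry2) and 2 SPRED genes (Spred1 and Spred2). They were chosen by name, with earlier results of these data known. All 10 were found by Entrez ID among the 24112 genes of the deposited tables. The cells were LSK cells, the lineage-negative, Sca1-positive, Kit-positive bone marrow fraction that is enriched for blood stem and progenitor cells, sorted from C57BL/6 mice after bone marrow transplantation. KO denotes Traf6-/-;Vav-Cre+ donor marrow (4 libraries, KO1 to KO4), and WT denotes Vav-Cre+ donor marrow with Traf6 intact (4 libraries, WT1 to WT4), so both genotypes carried the Vav-Cre transgene, whose promoter is active in blood cells. No label gives the age of the mice, says whether the libraries of a genotype came from separate mice, or says how donor cells were told apart from those of the recipient. Any p-value given here therefore reflects only how these 8 libraries varied, which could be technical variation.

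ERK is the last kinase of the RAS, RAF and MEK relay that carries signals from growth factor and cytokine receptors such as KIT. Active ERK induces its own inhibitors: MAP kinase phosphatases remove the phosphates from the activation loops of ERK, p38 or JNK kinases, Sprouty proteins restrain signalling between receptors and RAS, and SPRED proteins bring the RAS inhibitor neurofibromin to the membrane. Some of these messages are short-lived and follow ERK activity, and those are used as readouts of the pathway. The messages themselves, and no kinase activity, were measured here.

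Values are RPKM, which scales read numbers by gene length and library depth, so levels may be compared between genes. Traf6 itself was at 0.613, 0.818, 0 and 0.00721 RPKM in KO1 to KO4, against 14.9, 3.52, 9.40 and 7.10 RPKM in WT1 to WT4, with every KO library below every WT library. Kit was at 50.6 to 113 RPKM in KO and 73.8 to 83.1 RPKM in WT, and Ly6a, which encodes Sca1, at 6.53 to 10.8 RPKM in KO and 7.31 to 11.8 RPKM in WT. Both markers of the sort were thus present in all 8 libraries, while the B cell genes Cd79a, Ms4a1 and Pax5 were listed at 0 in all of them. Depth, estimated from the steps between low values, was about 22.5 to 30.7 M reads in KO and 19.3 to 24.8 M reads in WT. These figures are rough, since only 49.4% to 59.6% of the low values were whole reads at the estimated depth. Lane 5 of the sequencer held KO3 and KO4, and lane 4 held the remaining 6. KO3, KO4 and WT2 listed the fewest genes above 0, with 9055, 10674 and 11169 genes, against 12754 to 13689 in the other 5. A listed value of 0 does not show that a message was absent, and lane 5 held no WT library, so values from the lane 4 libraries alone are given beside the results.

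Promoter windows from RefSeq (build GRCm38.p6; the submitters' processing notes name mm9, and no coordinate of one build was carried to the other) were found for 9 of the 10 genes, the exception being Dusp4. The 250 bases upstream of the start are shown, 5′ to 3′ in the direction of the gene, for Dusp1 and Dusp5, the phosphatase genes with a marked element upstream of the start, and for Dusp6 and Dusp2, the pair with the smallest p-values between genotypes. Capitals mark the serum response element core known as the CArG box, where serum response factor binds with ERK-activated ETS partners, and the cAMP response element TGACGTCA or its TGACG core, on either strand.
Dusp1 (chr17:26508473-26508722, minus strand): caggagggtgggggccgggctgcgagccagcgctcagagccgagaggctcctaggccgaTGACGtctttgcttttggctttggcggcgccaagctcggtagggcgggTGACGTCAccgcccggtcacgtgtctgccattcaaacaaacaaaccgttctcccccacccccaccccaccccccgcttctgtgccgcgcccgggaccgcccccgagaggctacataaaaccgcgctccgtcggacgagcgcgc
Dusp5 (chr19:53528895-53529144, plus strand): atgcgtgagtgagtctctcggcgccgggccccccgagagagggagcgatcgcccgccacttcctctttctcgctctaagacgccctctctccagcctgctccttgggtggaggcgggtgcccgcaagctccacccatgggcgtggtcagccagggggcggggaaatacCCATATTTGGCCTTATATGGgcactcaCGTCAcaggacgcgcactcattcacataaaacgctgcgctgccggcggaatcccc
Dusp6 (chr10:99262981-99263230, plus strand): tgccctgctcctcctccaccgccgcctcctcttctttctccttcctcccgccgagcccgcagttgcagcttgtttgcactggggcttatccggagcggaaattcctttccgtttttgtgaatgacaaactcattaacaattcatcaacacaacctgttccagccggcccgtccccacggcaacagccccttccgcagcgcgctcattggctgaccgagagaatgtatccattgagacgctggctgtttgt
Dusp2 (chr2:127335909-127336158, plus strand): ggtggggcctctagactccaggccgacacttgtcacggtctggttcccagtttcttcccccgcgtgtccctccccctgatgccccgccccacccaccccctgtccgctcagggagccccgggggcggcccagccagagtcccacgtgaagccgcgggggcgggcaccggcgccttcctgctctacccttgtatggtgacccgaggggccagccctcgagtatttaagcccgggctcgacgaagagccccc
The Dusp5 window held CArG boxes side by side, with the bases CCATATTTGG and CCTTATATGG. A CArG box was found in 1 of the 9 windows, against 1.63% of the 32851 windows in the RefSeq table. TGACGTCA was found in 1 of 9, that of Dusp1, against 1.79% of all windows. Its core TGACG, which also counts each TGACGTCA, was found in 4 of 9 (Dusp1, Dusp2, Dusp5 and Spred2), against 20.8% of all windows; the match in Dusp2 lay past the start and is not shown. CCGGAA, a core bound by ETS factors, was found in 1 of 9, that of Spry2, against 14.9%. Neither the AP-1 site TGANTCA nor a kappaB site was found in the 9 windows, against 7.81% and 4.51% of all windows. These matches describe letters and show no binding.

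The 10 genes spanned a wide range of expression. Dusp1 and Dusp2 were the most abundant, with means of 114 and 70.1 RPKM in KO and 148 and 137 RPKM in WT, and both ranked first or second in every library. Their ranges overlapped each other in both genotypes but stood apart from Dusp6, next in order, at 13.2 RPKM in KO and 34.5 RPKM in WT. The 6 genes between Dusp6 and Dusp10 overlapped their neighbours in order in both genotypes, with means from 4.61 to 12.8 RPKM in KO and from 10.5 to 21.3 RPKM in WT. Dusp10 was lowest, at 1.33 RPKM in KO and 2.28 RPKM in WT, and its range stood apart from the next gene only in WT. Dusp1 and Dusp2 together made up 83.2% to 93.0% of the summed RPKM of the 6 phosphatases in KO and 72.8% to 88.2% in WT.

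**Figure D1:**
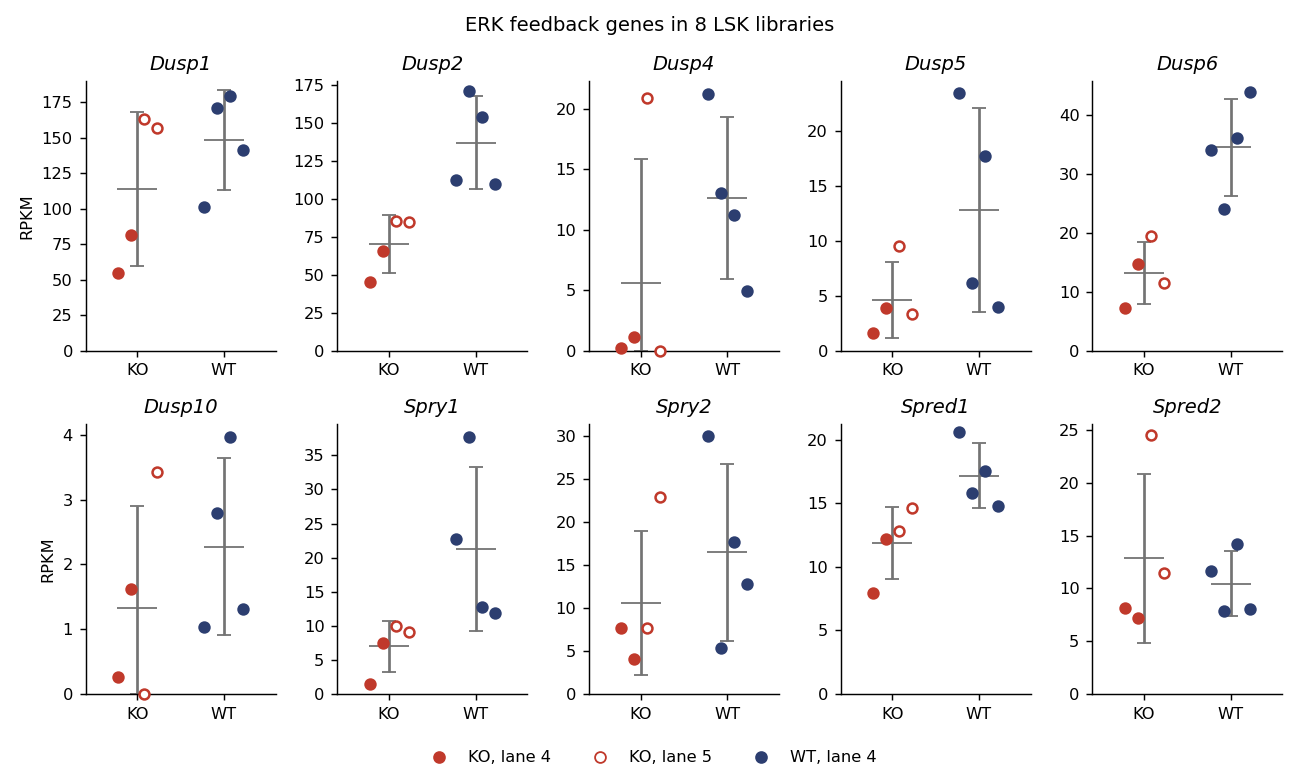
RPKM of each of the 10 genes (vertical axes, linear, starting at 0, scaled per gene) in the KO and WT libraries; filled points are lane 4, open points lane 5, and bars give the mean ± SD of 4 libraries, cut at 0. The genotypes do not overlap for Dusp2, Dusp6, Spry1 and Spred1, and the single high KO point for Dusp4, at 20.9 RPKM, is KO3.

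Of the 10 genes, 9 had a negative difference between KO and WT, against 61.0% of all genes tested. No gene passed the threshold: 0 of the 10 and 0 of the 11276 genes tested (0.00%) reached a limma adjusted p under 0.05. At an unadjusted p under 0.05, 4 of the 10 genes were lower in KO (Dusp2, Dusp4, Dusp6 and Spry1) and 0 were higher, against 4.74% lower and 2.77% higher of all genes (847 genes or 7.51% in either direction). No KO value reached the WT range from below for 4 genes (Dusp2, Dusp6, Spry1 and Spred1), against 3.88% of all genes in that direction and 5.92% in both. The median difference of the 10 genes was -0.81 on the log2(RPKM + 1) scale, beside -0.14 for all genes. Bulk RNA cannot tell fewer cells expressing a gene from less message per cell.

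**Figure D2:**
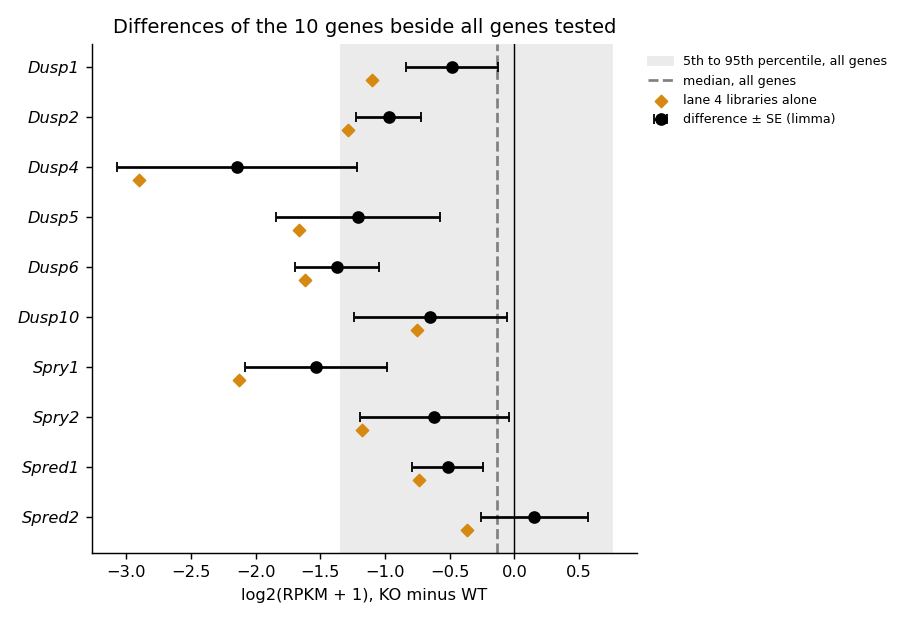
Difference of each gene, KO minus WT, on the log2(RPKM + 1) scale (horizontal axis); black points are limma estimates from 8 libraries with SE, diamonds the lane 4 libraries alone, the grey band the 5th to 95th percentile of all genes tested and the dashed line their median of -0.14. Spry1, Dusp6 and Dusp4 lie beyond the lower edge of the band at -1.34, and Spred2 alone lies above 0 with all 8 libraries.

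Dusp6 encodes a cytoplasmic phosphatase that acts on ERK in preference to p38 and JNK and is a standard readout of ERK activity. It was at 7.18, 14.6, 19.5 and 11.5 RPKM in KO1 to KO4, against 34.0, 24.0, 36.2 and 43.9 RPKM in WT1 to WT4. The highest KO library, KO3, was below the lowest WT library, WT2. The mean in KO was 38.3% of that in WT (13.2 ± 5.21 and 34.5 ± 8.21 RPKM, SD, n = 4 each), a log2 difference of -1.37 ± 0.32 (SE; limma adjusted p = 0.441 over all genes). The 2-sided exact permutation p was 0.0286, the smallest that 70 assignments of the libraries can give. The difference lay between -1.57 and -1.13 when any 1 library was left out, with an unadjusted p under 0.05 in 8 of 8 such fits, and was -1.62 ± 0.34 in lane 4 alone.

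Dusp2 encodes a nuclear phosphatase of ERK and p38 known from activated lymphocytes. It was at 44.9, 65.8, 85.2 and 84.4 RPKM in KO1 to KO4, against 112, 171, 154 and 109.6 RPKM in WT1 to WT4. KO and WT libraries were again fully separated, with the lane 5 libraries KO3 and KO4 the closest to WT. The KO mean was 51.3% of the WT mean (70.1 ± 19.0 and 137 ± 30.6 RPKM, SD, n = 4 each), and the log2 difference was -0.97 ± 0.25 (limma adjusted p = 0.441; 2-sided exact permutation p = 0.0286). Leaving out any 1 library kept the unadjusted p under 0.05 in 8 of 8 fits, with differences from -1.08 to -0.78, and the lane 4 libraries gave -1.29 ± 0.25.

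Dusp1, Dusp4 and Dusp5 encode the other inducible nuclear phosphatases, of which DUSP5 is specific for ERK, DUSP4 acts on ERK and JNK, and DUSP1 acts on p38 and JNK as well as ERK. Dusp5 was at 1.58, 3.94, 9.59 and 3.31 RPKM in KO1 to KO4, against 23.5, 6.16, 17.7 and 4.03 RPKM in WT1 to WT4. KO3 lay within the WT range, KO2 and KO4 just below it and KO1 further below, and WT itself split into a higher and a lower pair. The difference was -1.21 ± 0.63 (95% interval -2.62 to 0.21, limma adjusted p = 0.681), and -1.67 ± 0.66 in lane 4 alone.

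Dusp4 was at 0.242, 1.16, 20.9 and 0.0163 RPKM in KO1 to KO4, against 21.2, 13.0, 11.2 and 4.96 RPKM in WT1 to WT4. KO3 was as high as the highest WT library, and the other 3 KO libraries were below every WT library. The difference, at -2.14 ± 0.93 (limma adjusted p = 0.647, 2-sided exact permutation p = 0.114), was the largest of the 10 genes. Its size depended on single libraries, from -3.13 without KO3 to -1.66 without KO4, and it was -2.90 ± 0.54 in lane 4 alone. Its unadjusted p was under 0.05 in 2 of 8 fits with a library removed.

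Dusp1 was at 54.9, 81.4, 163 and 156 RPKM in KO1 to KO4, against 101.5, 171, 179 and 141 RPKM in WT1 to WT4. The lane 4 libraries KO1 and KO2 were below all WT libraries, whereas the lane 5 libraries KO3 and KO4 were within the WT range. Over all libraries the difference was -0.48 ± 0.35 (95% interval -1.27 to 0.31, limma adjusted p = 0.737), and in lane 4 alone it was -1.103 ± 0.27 (adjusted p = 0.278). Leaving out 1 library gave differences from -0.70 (without KO3) to -0.18 (without KO1).

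Dusp10 encodes a phosphatase that prefers p38 and JNK to ERK, so it is the member least tied to ERK. It was at 0.264 and 1.61 RPKM in KO1 and KO2, listed at 0 in KO3 and at 3.43 RPKM in KO4, against 1.03, 2.79, 3.97 and 1.32 RPKM in WT1 to WT4. The genotypes overlapped, at levels near the filter of 1 RPKM, and the difference was -0.65 ± 0.59 (95% interval -1.97 to 0.67, limma adjusted p = 0.777). It lay between -1.04 (without KO4) and -0.33 (without KO3) when 1 library was left out, and was -0.75 ± 0.58 in lane 4 alone.

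Spry1 encodes a Sprouty protein, an inhibitor of receptor signalling to RAS and ERK. It was at 1.51, 7.45, 9.95 and 9.02 RPKM in KO1 to KO4, against 22.7, 37.8, 12.7 and 11.9 RPKM in WT1 to WT4. The genotypes were separated, but only narrowly, since WT3 and WT4 lay just above KO3 and KO4. The KO mean was 32.8% of the WT mean, the lowest share of the 10 genes (6.98 ± 3.79 and 21.27 ± 12.03 RPKM, SD, n = 4 each), and the log2 difference was -1.53 ± 0.55 (limma adjusted p = 0.627; 2-sided exact permutation p = 0.0286). The unadjusted p was under 0.05 in 7 of 8 fits with a library removed, the exception being the fit without WT2 (difference -1.22). The lane 4 libraries gave -2.13 ± 0.59. Spry2, its paralogue, was at 7.67, 4.09, 7.73 and 22.9 RPKM in KO1 to KO4, against 30.02, 5.40, 17.7 and 12.8 RPKM in WT1 to WT4. Its genotypes overlapped, with KO4 above 3 WT libraries and WT2 below 3 KO libraries, and the difference was -0.62 ± 0.58 (95% interval -1.91 to 0.67, limma adjusted p = 0.780). That of Spry2 depended on single libraries, from -1.05 without KO4 to -0.27 without WT1. It was -1.18 ± 0.58 in lane 4 alone and -1.59 without WT2, KO3 and KO4.

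Spred1 encodes the SPRED protein known in mice to restrain stem cell self-renewal. It was at 7.93, 12.2, 12.8 and 14.6 RPKM in KO1 to KO4, against 20.6, 15.8, 17.6 and 14.8 RPKM in WT1 to WT4. All KO libraries were below all WT libraries, although KO4 and WT4 were almost equal. The KO mean was 69.2% of the WT mean, and the difference was -0.52 ± 0.28 (95% interval -1.13 to 0.10, limma adjusted p = 0.684), and -0.74 ± 0.28 in lane 4 alone. Spred2 was the exception to the direction: it was at 8.10, 7.23, 24.6 and 11.4 RPKM in KO1 to KO4, against 11.7, 7.83, 14.2 and 8.09 RPKM in WT1 to WT4. KO3 was above every WT library, KO2 was below every WT library, and KO1 and KO4 lay within the WT range. The difference of 0.16 ± 0.41 (95% interval -0.77 to 1.08, limma adjusted p = 0.929) was -0.19 without KO3 and -0.37 in lane 4 alone. Whether Spred1 and Spred2 differ in response was not tested.

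**Figure D3:**
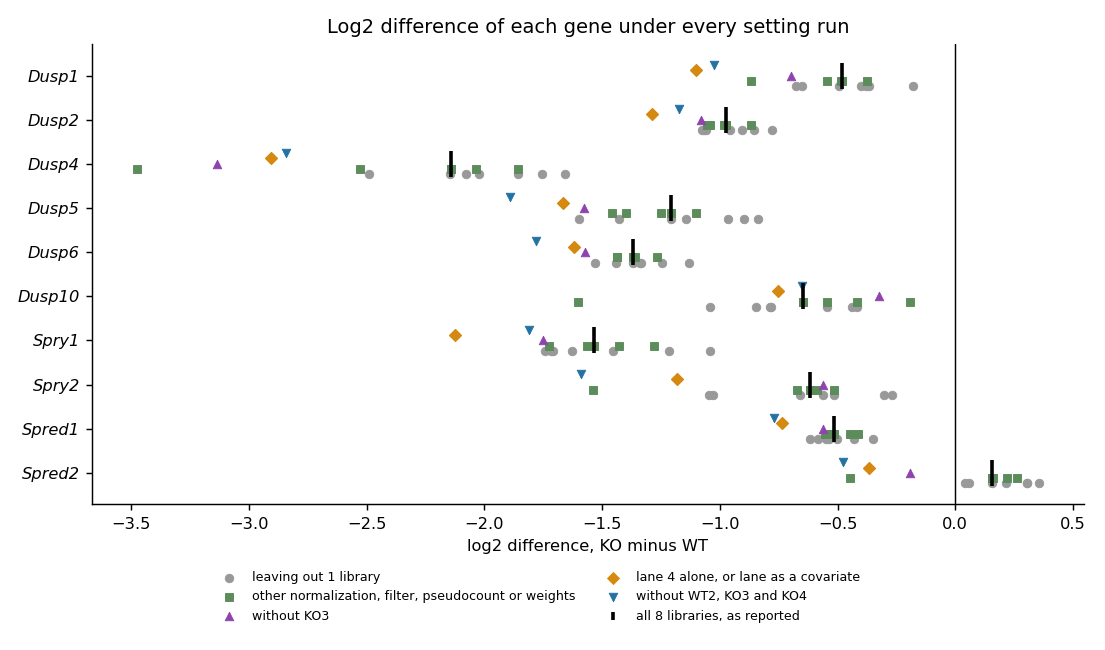
Difference of each gene on the log2 scale, KO minus WT (horizontal axis), with all 8 libraries (black bars) and under each alternative run; symbols separate fits that left out 1 library, fits on lane 4, fits without WT2, KO3 and KO4, and other settings. In 9 genes every setting lies below 0, and Spred2 lies on both sides, from -0.48 to 0.35.

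In lane 4 alone (KO1 and KO2 against WT1 to WT4) 7 of the 10 genes were lower in KO at an unadjusted p under 0.05, against 6.04% of all genes lower and 11.0% in either direction, and the same 7 genes had no overlap, against 13.5% of all genes lower. They were Dusp1, Dusp2, Dusp4, Dusp5, Dusp6, Spry1 and Spred1. The median difference of the 10 genes was -1.23 there. Without WT2, KO3 and KO4 the number was 8 of 10 (7.92% of all genes lower and 14.0% in either direction), with Spry2 added, and 8 were without overlap (19.7% of all genes lower); both settings rest on KO1 and KO2 alone for the KO side. None of the 10 genes had an adjusted p under 0.05 in either setting. With library weights, which gave KO2 a weight of 6.50 and KO3 one of 0.137, limma placed Dusp2, Dusp4 and Dusp6 under the threshold (-1.04, -2.53 and -1.44, adjusted p = 0.0242, 0.0262 and 0.0240), among 164 genes (1.45%). In that fit 8 of the 10 genes were lower in KO at an unadjusted p under 0.05, against 17.7% of all genes in either direction.

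Summed over the 6 phosphatase genes, RPKM was 109, 168, 298 and 259 in KO1 to KO4, against 294, 388, 402 and 305 in WT1 to WT4. Summed over the 4 Sprouty and SPRED genes it was 25.2, 30.9, 55.1 and 58.0 in KO1 to KO4, against 85.0, 66.8, 62.2 and 47.6 in WT1 to WT4. In both sums KO1 and KO2 were lowest and KO3 or KO4 reached the lowest WT library. KO1 was below the KO mean in all 10 genes and KO3 above it in 8, and WT4 was above the WT mean in only 1.

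Among other MAP kinase phosphatases, Dusp8 was listed at 0 in all libraries, Dusp9 was listed above 0 only in KO1 and KO2 (3.02 and 1.22 RPKM), and Dusp16 was at 0 to 4.32 RPKM in KO and 0.645 to 2.93 RPKM in WT. Dusp7, which encodes another cytoplasmic ERK phosphatase, was highest in KO1 and KO2: it was at 25.3, 22.8, 8.72 and 0 RPKM in KO1 to KO4, against 5.81, 0, 7.26 and 8.70 RPKM in WT1 to WT4 (0.87, 95% interval -1.58 to 3.32, limma adjusted p = 0.832). KO1 and KO2 were above every WT library. In lane 4 alone, 1 of the 2 tested genes of this list was higher in KO at an unadjusted limma p under 0.05, and 0 were lower. The share over all genes there was 11.0% in either direction. Of 7 tested atypical dual-specificity phosphatases, which are not feedback genes of ERK, 0 had an unadjusted p under 0.05 in either direction. The most abundant of these was Dusp11, at 19.5 to 33.8 RPKM in KO and 18 to 22.7 RPKM in WT. Spry3 was listed at 0 throughout, and Spry4, a Sprouty gene used as an ERK readout in other tissues, was at most 0.220 RPKM in KO and 1.097 RPKM in WT. Spred3, the remaining SPRED gene, was at 1.66, 1.73, 0 and 1.84 RPKM in KO1 to KO4, against 5.54, 9.70, 5.47 and 4.09 RPKM in WT1 to WT4, without overlap (-1.70 ± 0.52, limma adjusted p = 0.540).

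In the relay that activates ERK, levels in the genotypes were closer. Of 28 tested genes of the RAS-ERK cascade, 1 was lower and 1 higher in KO at an unadjusted p under 0.05, and their median difference was 0.00. The exceptions, named after their values were seen, were the adaptor gene Gab1, at 0 to 3.17 RPKM in KO and 3.20 to 6.30 RPKM in WT, and Rps6ka1, which encodes the ERK-activated kinase RSK1, at 64.8 to 85.6 RPKM in KO and 37.9 to 52.1 RPKM in WT. Mapk3 (ERK1) was at 89.5, 82.1, 52.8 and 88.1 RPKM in KO1 to KO4, against 34.9, 54.5, 77.0 and 61.9 RPKM in WT1 to WT4 (0.47 ± 0.27, limma adjusted p = 0.696). The MEK genes Map2k1 and Map2k2 had differences of 0.32 ± 0.21 and 0.39 ± 0.25, and the genotypes overlapped in these 3 kinase genes. The cascade's other abundant members, the adaptor gene Grb2 and Pebp1, which encodes a RAF inhibitor, had differences of 0.02 ± 0.16 and 0.20 ± 0.23.

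Among 11 receptor genes upstream of ERK, 1 was lower (Flt3) and 1 higher (Csf1r) at an unadjusted p under 0.05. Flt3, the receptor of multipotent progenitors, was at 31.4, 42.5, 54.0 and 52.1 RPKM in KO1 to KO4, against 89.2, 85.5, 78.3 and 59.3 RPKM in WT1 to WT4. Kit, which was used in the sort, had a difference of -0.13 ± 0.24. Of 10 transcription factor genes regulated by ERK, such as Elk3, Srf and Atf1, 0 were lower or higher at an unadjusted p under 0.05. Elk4 (3.68 to 7.74 RPKM in KO, 8.22 to 15.3 RPKM in WT) and Ets2 (0 to 5.45 RPKM in KO, 5.69 to 8.26 RPKM in WT) were lower in KO without overlap. The others of this list overlapped, and 3.88% of all genes were lower without overlap. Of 11 tested ERK-induced genes outside the feedback set, 3 were lower (Phlda1, Maff and Ccnd1) and 1 was higher (Myc). Fos, the most abundant of these, was at 178, 187, 329 and 490 RPKM in KO1 to KO4, against 457, 401, 445 and 413 RPKM in WT1 to WT4, which repeated the split between KO1 and KO2 and the lane 5 pair. Myc was at 174, 152, 107 and 134 RPKM in KO1 to KO4, against 74.7, 91.0, 102 and 129 RPKM in WT1 to WT4 (0.52 ± 0.22, limma adjusted p = 0.645). Etv5, an ETS factor gene often read together with Dusp6, overlapped between genotypes, at 5.14 to 23.7 RPKM in KO and 7.13 to 18.9 RPKM in WT (-0.40 ± 0.50). Of the 5 tested p38 and JNK kinase genes, the JNK1 gene Mapk8 was lower in KO at an unadjusted p under 0.05, at 3.52 to 6.58 RPKM in KO and 9.46 to 13.2 RPKM in WT. Gab1, Rps6ka1, Csf1r, Elk4, Ets2, Phlda1, Maff, Ccnd1 and Etv5 were named after their values were seen.

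**Figure D4:**
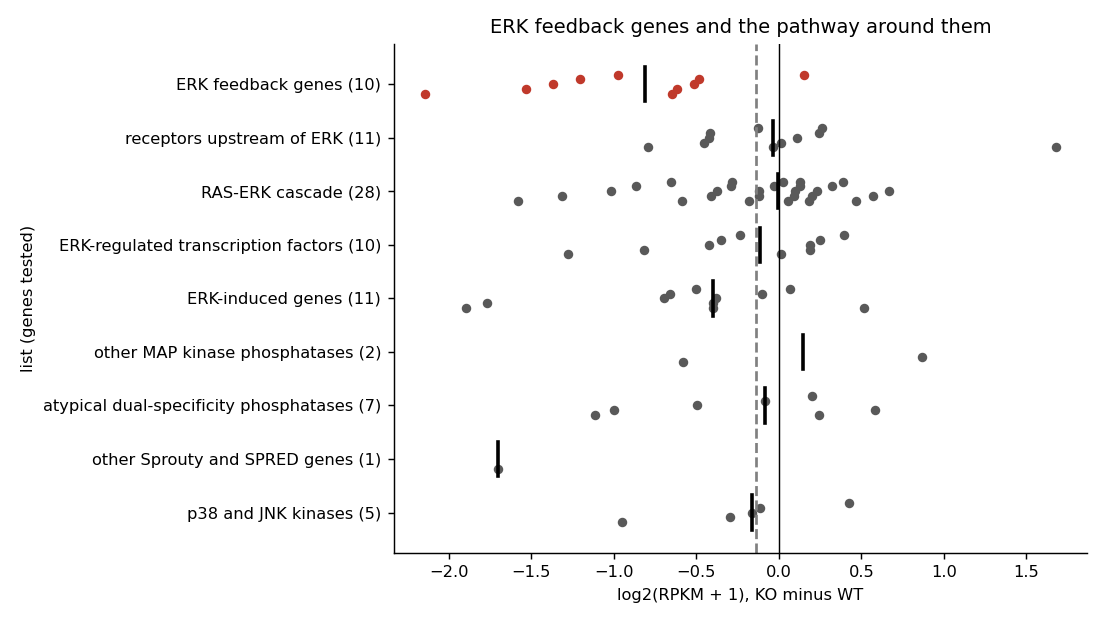
Difference of each tested gene on the log2(RPKM + 1) scale, KO minus WT (horizontal axis), for the 10 feedback genes (red) and 8 lists of pathway genes (grey), with the number tested in brackets; black bars are list medians and the dashed line is the median of all genes, -0.14. The feedback genes have a median of -0.81, and the RAS-ERK cascade one of 0.00.

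Several other lists varied across the same libraries. The level of the feedback genes (mean log2(RPKM + 1) minus that of all genes tested) was -1.05, -0.53, 0.86 and 0.08 in KO1 to KO4, against 0.78, 0.65, 0.75 and 0.12 in WT1 to WT4. The level of 19 tested immediate-early genes that are not among the 10, such as Fos, Ier2 and Zfp36, was 0.71, 0.92, 2.07 and 1.57 in KO1 to KO4, against 2.60, 2.03, 2.11 and 1.58 in WT1 to WT4. Of these, 9 were lower and 0 higher in KO at an unadjusted p under 0.05. Summed RPKM of 5 stem cell genes was 18.8 to 72.7 in KO and 73.3 to 95.2 in WT, and that of 6 granulocyte-monocyte progenitor genes was 2085 to 7950 in KO and 612 to 1821 in WT, with no gene of either list at 0 throughout a genotype. The highest progenitor sum, 7950, was in KO1, the library with the lowest feedback level. KO3, the library with the highest feedback level, had a progenitor sum of 2862, also above every WT library. Of 6 T cell genes, Cd3g was listed at 0 in all libraries and the summed RPKM was 3.09 to 23.3 in KO and 19.1 to 36.03 in WT; Lck alone was at 3.04 to 22.6 RPKM in KO and 19.1 to 35.2 RPKM in WT. With lane as a covariate, 6 of the 10 feedback genes were lower in KO at an unadjusted limma p under 0.05, with a median of -1.23. In that fit 658 of the 11276 genes tested had such a p in either direction. Lane cannot be fully told apart from genotype, since lane 5 held no WT library. The part of immediate-early genes and of these cell types in the differences of the feedback genes was not tested.

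**Figure D5:**
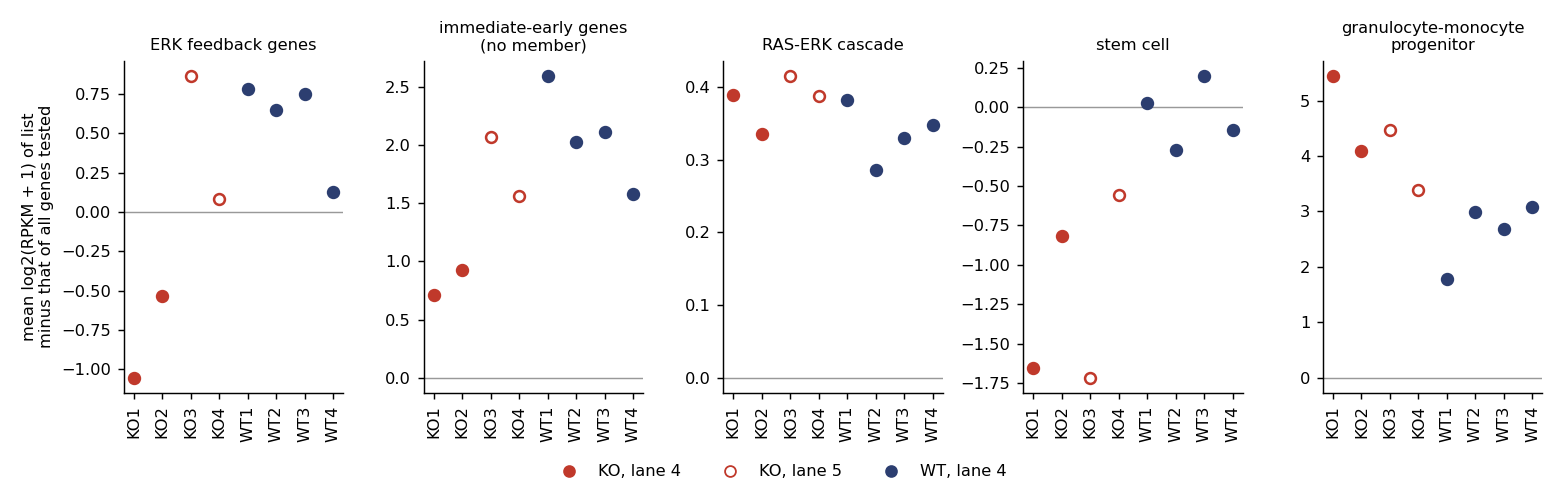
Level of each list in each library (vertical axes, mean log2(RPKM + 1) of the list minus that of all genes tested, scaled per panel); red is KO, blue is WT, and open points are lane 5. KO1 and KO2 are lowest for feedback and immediate-early genes, KO3 and KO4 lie near WT for both, and the stem cell panel has all KO libraries below all WT libraries.

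Likeness of pattern was measured as the root mean square difference between log2(RPKM + 1) profiles over the 8 libraries, each centred on its own mean, among 8668 other genes with a mean of at least 5 RPKM. Closest to Dusp6 was Chaserr, a long noncoding RNA gene (0.27), followed by Stam (0.33), which encodes an endosomal sorting adaptor, and Cdkn1b (0.34), which encodes the cell cycle inhibitor p27. Chaserr was at 4.52 ± 1.32 RPKM in KO and 10.2 ± 1.24 RPKM in WT, and Cdkn1b at 18.8 ± 7.80 RPKM in KO and 36.2 ± 3.17 RPKM in WT (SD, n = 4 each). Hmga2 came next (0.35). Closest to Dusp2 were Atp2b4 (0.20), which encodes a plasma membrane calcium pump, Flt3 (0.22), the noncoding RNA gene Peg13 (0.24) and Ptbp2 (0.24). Closest to Spry1 were Eya2 (0.43), Car2 (0.47), Ifi44 (0.49) and Angpt1 (0.50), the gene of a ligand of the receptor TIE2. Among the 8 other feedback genes that reached this mean, the one closest to Dusp6 was Dusp2 (0.48), to Dusp2 was Spred1 (0.35) and to Spry1 was Dusp2 (0.61). Among all 8668 genes compared, these ranked 32, 100 and 24.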

How the data were processed

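Per the labels' protocols, poly(A) RNA was sequenced. The deposited RPKM values, 1 per Entrez gene and library, were made by the authors; the submitters' processing notes name TopHat, edgeR and mm9, with no version or role, and no source used here names the counting tool or the annotation. The unit was read from the values. Of 24112 gene IDs, 24029 matched a symbol in a GRCm38 RefSeq table.

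Genotype was tested with limma 3.58.1 in R 4.3.3 (eBayes, trend and robust) on log2(RPKM + 1), which understates differences of low genes, in 11276 genes that reached 1 RPKM in 4 or more libraries; all 10 feedback genes passed this filter. P-values were Benjamini-Hochberg adjusted over all genes tested. Single genes also had 2-sided exact permutation tests over 70 assignments. The permutation p was 0.0286 for Dusp2, Dusp6, Spry1 and Spred1, 0.114 for Dusp4, and 0.143 to 0.8 for the other feedback genes. On simulated data with 200 changed genes of 11276, limma recovered 0.5%, 48.8% and 86.7% of log2 changes of 1, 2 and 4. Between 49.4% and 59.6% of low values were whole reads within 0.03 reads at the best depth, so counts were not recovered and counting error is not given.

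The genes and lists were chosen with earlier results of these data known. Named genes were the 10 genes, Traf6, the 3 most abundant genes per list, Mapk3, Map2k1, Map2k2, Spry4, Spred3 and Kit, and the 4 genes closest in pattern to Dusp6, Dusp2 and Spry1; further genes are marked as named after their values were seen. Some list genes are given only in sums and counts, and 1 gene that the rule names is not reported here. Lists covered the cascade, immediate-early genes, and stem, myeloid, B, T, erythroid, megakaryocyte and stromal cells. Summed RPKM of mature myeloid genes was 149 to 198 in KO and 131 to 176 in WT, of B cell genes 6.65 to 16.4 in KO and 5.71 to 16.5 in WT, of erythroid genes 52.2 to 198 in KO and 123 to 242 in WT, of megakaryocyte genes 45.7 to 128 in KO and 48.2 to 92.8 in WT, and of endothelial and stromal genes 13.8 to 24.8 in KO and 16.3 to 27.6 in WT. Protein features were not analysed here.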

Additional observations from a re-analysis of the deposited data

Results flagged for a closer look

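Dusp4 in KO3, at 20.9 RPKM, stood apart from the other 3 KO libraries, which were at 0.0163 to 1.16 RPKM: the gap to the nearest of them was 0.945 of the whole range of the 4 libraries. Chance sets about 1 in 20 groups apart in this way, and 20 were examined here.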

How the results depend on the processing

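Of 189 values of single genes under 19 alternatives, 181 kept their direction and stayed above an adjusted p of 0.05, 3 passed it (Dusp2, Dusp4 and Dusp6 with library weights) and 5 reversed, all of Spred2: -0.37 with lane as a covariate and in lane 4 alone, -0.45 with library weights, -0.48 without WT2, KO3 and KO4, and a range of -0.19 (KO3 removed) to 0.35 (KO2 removed) over single libraries removed. Dusp10 was not tested under the filter of 5 RPKM. A changed or absent filter, the replicate block, and eBayes without trend or robust leave each difference as it was. Its direction therefore could not change in those settings. With lane as a covariate, each difference equals that of lane 4 alone. Genes past an adjusted p of 0.05 numbered 2 in lane 4 alone, 164 with weights, 3 without WT2, KO3 and KO4, and 0 to 2 when 1 library was left out (2 without KO3). Genes at an unadjusted p under 0.05 numbered 1994 with weights, 1582 without WT2, KO3 and KO4, and 553 (without WT1) to 1066 (without KO3). Of the 10 genes, all lower in KO, 7 were below that p in lane 4 (6.04% of all genes lower) and 8 without WT2, KO3 and KO4 (7.92%). When 1 library was left out, the number was 2 (without WT2, 3.55%) to 5, with shares of 2.99% to 5.87%. With weights it was 8, against 17.7% of all genes in either direction. Of the 10, those without overlap, all lower in KO, were 2 with quantile normalization (2.58% of all genes), 7 in lane 4 (13.5%), 8 without WT2, KO3 and KO4 (19.7%), and 4 to 6 when 1 library was left out (4.90% to 7.55%; 6 without KO3, 6.62%), beside 4 with all libraries (3.88%). The median of the 10 genes was -1.38 without WT2, KO3 and KO4, a setting added after the data were seen, and -1.06 to -0.67 when 1 library was left out. The cause was not tested. Replicate numbers did not pair the libraries (correlations of -0.08 to -0.04 between same-numbered libraries). With the number as a replicate block, 705 of the 11276 genes tested had an unadjusted p under 0.05, in either direction, as did 4 of the 10.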
